A study of Mus musculus with 2 samples.

Results

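Cathepsins are the proteases of the lysosome and endosome, and 10 cathepsin genes (Ctsa, Ctsb, Ctsc, Ctsd, Ctse, Ctsh, Ctsl, Ctss, Ctsw and Ctsz) are described here across 20 clusters of aortic leukocytes. They were taken by name from a table of 31053 genes, in which each has 1 row. All 10 passed the minimum of 20 unique molecular identifiers (UMIs, tags that count single transcript molecules), which 14202 genes of the table reached. Together they held 228708 of 70206506 UMIs, or 0.326%.

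The cells came from Apoe-/- mice, which lack apolipoprotein E and develop atherosclerotic plaques, fed a western diet and given nt-LNA at 30 mg/kg or saline for 4 weeks. Leukocytes sorted as CD45+/CD3- from the arch and thoracic part of the aorta were profiled by droplet 3' sequencing, with 1 library per treatment (n = 1) of 4871 nt-LNA cells and 2742 saline cells. The labels give no age or sex of the mice, no number of mice per library and no target of the LNA, and no wild-type or chow-fed group was analysed here. The gene counts pool both libraries within each cluster, so cathepsin levels in nt-LNA and saline cells were not compared.

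Most cathepsins are cysteine proteases of the papain family, cathepsins D and E are aspartic proteases, and cathepsin A is a serine carboxypeptidase. They are made as inactive precursors, reach the lysosome mainly through the mannose 6-phosphate receptors, and are activated there by cleavage at low pH. In antigen-presenting cells they degrade proteins for loading on MHC class II and cut the invariant chain, and in plaques, cathepsins secreted by macrophages can cleave elastin and collagen.

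The authors' names divided the clusters into 9 called Macrophages and 11 called B cells, T cells or NK cells. By their leading genes, the Macrophages clusters were of several kinds. Cluster 7 was neutrophil-like (9 of 9 neutrophil markers among its 50 leading genes), cluster 8 mature dendritic cell-like, cluster 15 nonclassical monocyte-like, cluster 17 type 1 dendritic cell-like, cluster 18 plasmacytoid dendritic cell-like and cluster 19 serous cavity macrophage-like. Cluster 0 is left unnamed: it carried the macrophage gene C1qa at 1965 CPM (UMIs per 1000000 UMIs of the cluster), but smooth muscle genes were among its leading genes. Cluster 6, led by cell cycle genes, and cluster 10, which had 3 foamy macrophage markers and 3 classical monocyte markers among its leading genes, are also unnamed. In cluster 6 the T cell markers summed to 2514 CPM, the highest of the 9 Macrophages clusters. Its macrophage markers summed to 309 CPM, the lowest of the 9. Of the other 11 clusters, 1 and 12 were B cell-like, 4 plasma cell-like, 3 NK cell-like, and 11 and 16 group 2 innate lymphoid cell-like. Cluster 12 also carried T cell RNA. Its T cell markers summed to 2495 CPM, against 134, 234 and 97.6 CPM in clusters 1, 2 and 4. The name of cluster 11 rests on Areg, Il5 and Rora, while its first leading gene was Il17a, which is in none of the marker lists. The name of cluster 4 rests on Igha, Ighm, Jchain and Mzb1. Its plasma cell markers summed to 14914 CPM, but its B cell markers summed to 4661 CPM, near the 4695 CPM of cluster 12. Clusters 2, 5, 9, 13 and 14 are called by their number. Although CD3+ cells were gated out, Cd3e, a chain of the CD3 complex, had 1331, 817, 1100 and 684 CPM in clusters 5, 9, 14 and 13. Clusters 6 and 12 had 304 and 308 CPM of it.

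Cluster totals lay between 212515 and 12985745 UMIs, and UMIs per cell between 1278 and 24869. Clusters 2, 5, 14 and 16 stood apart: 7.24% to 11.2% of their UMIs were mitochondrial, against at most 4.29% elsewhere, and they had 1278 to 3935 UMIs per cell. The libraries shared 2 cell barcodes. Clusters were built from the same expression values, so differences between them are given as descriptions without a test. The 95% intervals cover counting error only. Because each value sums the cells of a cluster, a smaller share of cells that make a transcript and less transcript per cell cannot be told apart. UMIs of 3' tags carry no length factor, but capture may differ between genes, so levels of different cathepsins are set side by side only as UMIs.

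Promoters of the cathepsins are shown for the motifs that lysosomal and myeloid genes are known for. The letters TCACGTGA are the core of the element bound by Tfeb, a transcription factor of lysosome genes, and CACGTG is the shorter E-box inside it. The letters GAGGAA form the purine-rich core bound by PU.1, a factor of myeloid and B cells. RefSeq promoters of build GRCm38.p6, 250 bases before to 50 after the start, were found for 6 of the 10 genes (Ctsa, Ctsc, Ctsd, Ctsl, Ctss and Ctsz), with 2 for Ctsa. The authors' notes name another build, mm9, so these coordinates belong to the promoter table only. Of the 7 promoters, 1 of Ctsa and that of Ctsd held TCACGTGA, which 0.974% of 32851 promoters of that length hold on either strand. In Ctsa it began 13 bases before and 4 bases after the start, and in Ctsd 99 bases before it. CACGTG, in 7.15% of all promoters, stood once more in Ctsd and once in Ctsl. GAGGAA, in 28.3% of all promoters, occurred 2 times each in Ctss and Ctsc. The other Ctsa promoter and that of Ctsz held none of these letters. The 3 sequences that carry these motifs for the serine, aspartic and most abundant cysteine cathepsin follow, 5′ to 3′ on the gene's strand, with capitals marking TCACGTGA or CACGTG in Ctsa and Ctsd, and GAGGAA or its reverse complement TTCCTC in Ctss. A match is a description of letters and not of a bound site.
Ctsa, chr2:164833523-164833822, plus strand: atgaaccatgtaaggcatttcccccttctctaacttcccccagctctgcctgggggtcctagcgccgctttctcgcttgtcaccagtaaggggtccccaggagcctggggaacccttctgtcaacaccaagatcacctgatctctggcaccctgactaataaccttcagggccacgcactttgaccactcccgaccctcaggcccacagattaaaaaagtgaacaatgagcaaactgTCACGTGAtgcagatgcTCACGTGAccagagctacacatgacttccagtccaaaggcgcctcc
Ctsd, chr7:142387778-142388077, minus strand: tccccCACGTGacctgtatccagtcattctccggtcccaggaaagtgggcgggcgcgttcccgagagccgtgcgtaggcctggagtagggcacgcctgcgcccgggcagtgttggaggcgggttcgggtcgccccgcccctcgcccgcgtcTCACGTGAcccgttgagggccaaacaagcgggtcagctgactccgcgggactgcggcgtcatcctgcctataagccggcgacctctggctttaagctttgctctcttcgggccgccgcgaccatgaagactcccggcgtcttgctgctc
Ctss, chr3:95526536-95526835, plus strand: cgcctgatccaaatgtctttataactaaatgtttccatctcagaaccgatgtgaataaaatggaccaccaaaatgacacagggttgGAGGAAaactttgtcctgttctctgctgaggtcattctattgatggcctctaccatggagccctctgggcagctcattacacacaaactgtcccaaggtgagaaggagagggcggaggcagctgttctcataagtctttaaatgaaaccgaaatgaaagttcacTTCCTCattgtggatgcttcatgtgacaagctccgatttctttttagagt

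Ctss encodes cathepsin S, the endopeptidase that trims the invariant chain in mouse B cells and dendritic cells and stays active at neutral pH. It had the most UMIs of the 10, 62985 or 27.5% of all cathepsin UMIs. In the 9 Macrophages clusters its level had a lowest value of 231 CPM in cluster 6, a median of 1124 CPM and a highest value of 2426 CPM (95% interval 2388 to 2465) in cluster 10. In the 11 other clusters the lowest was 35.8 CPM in cluster 13, the median 136 CPM and the highest 988 CPM in cluster 2. The groups overlapped, with 6 of 9 Macrophages clusters above every other cluster. Among the others, the clusters named B cells stood apart at 518, 988, 431 and 413 CPM in clusters 1, 2, 4 and 12, against 35.8 to 154 CPM in the NK and T cell clusters. Cluster 2, also the highest of the others for Ctsc, Ctsh and Ctsz, is of the few-UMI, high-mitochondrial kind. Per cell it had 2.27 Ctss UMIs, against 3.07, 4.83 and 4.91 in clusters 1, 4 and 12. The part of this in its CPM was not tested. Clusters 8 and 0 followed each other in the order at 1564 and 1556 CPM with a ratio interval of 0.98 to 1.03, and could not be told apart by counting error. Cluster 10 was 1.46-fold (1.40 to 1.53) above the next cluster, the nonclassical monocyte-like cluster 15.

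Ctsb, cathepsin B, is a cysteine protease with both endopeptidase and carboxypeptidase activity. It had the largest contrast of the 10 between the groups. The Macrophages clusters had 143 CPM at the lowest (cluster 6), a median of 812 CPM and 2263 CPM at the highest (cluster 10). The other clusters had 45.5 CPM at the lowest (cluster 1), a median of 123 CPM and 249 CPM at the highest (cluster 14). In this gene 8 of 9 Macrophages clusters lay above every other cluster, and cluster 6 was the exception. Cluster 15 followed cluster 10 at 1867 CPM and cluster 18 came next at 1601 CPM, with no ratio interval between these neighbours holding 1. In contrast to Ctss, the B cell clusters were not set apart: they had 45.5, 145, 76.1 and 123 CPM of Ctsb in clusters 1, 2, 4 and 12.

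Ctsl encodes cathepsin L, a cysteine endopeptidase known in mice for cutting the invariant chain in cortical epithelial cells of the thymus. Its highest level was in a single small cluster, the plasmacytoid dendritic cell-like cluster 18 of 59 cells, with 898 UMIs or 1654 CPM (1548 to 1766). The next cluster, 5, had 353 CPM, so that cluster 18 was 4.68-fold (4.09 to 5.38) higher. The other Macrophages clusters ran between 29.1 CPM in the type 1 dendritic cell-like cluster 17 and 310 CPM in cluster 10, within the range of the other clusters, 10.3 to 353 CPM. Among the clusters named T cells, 5, 14 and 9 had 353, 349 and 217 CPM of Ctsl, against 46.8 CPM in cluster 13 and 14.96 and 32.9 CPM in the innate lymphoid-like clusters 11 and 16. These 3 clusters also carried Ccr9, a chemokine receptor gene, at 1764, 429 and 1092 CPM, while cluster 18 had 1004 CPM of it. Cluster 12 had 423 CPM of Ccr9 with 109 CPM of Ctsl. Ccr9 was picked from these same values, as 1 of the 3 genes nearest to Ctsl in pattern. Siglech, a defining plasmacytoid gene looked up after these values were seen, was at 2200 CPM in cluster 18 and at 2.53, 0 and 1.603 CPM in clusters 5, 14 and 9, where Cd3e was high. Clusters 5 and 14 belong to those of few UMIs per cell, and the part of this in their Ctsl level was not tested. Cluster 9, with 3.55% mitochondrial UMIs, does not.

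**Figure D1:**
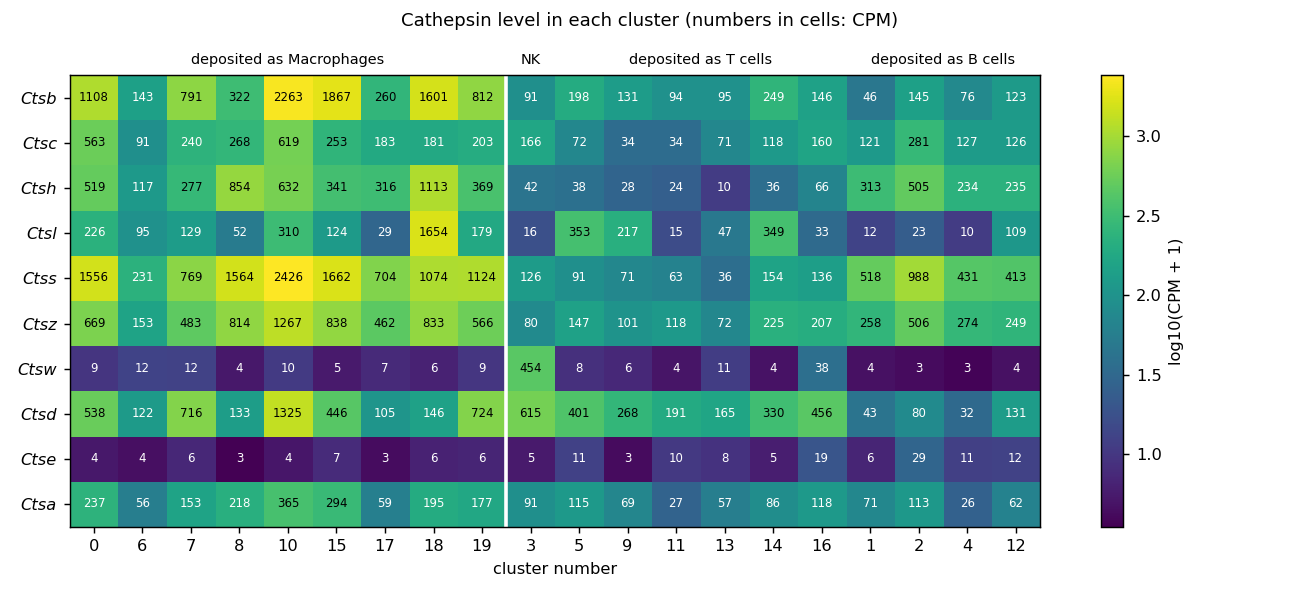
CPM of the 10 cathepsins (rows) in the 20 clusters (columns), with the colour on a log10(CPM + 1) scale and the CPM printed in each cell. The 9 clusters named Macrophages are left of the white line. Cluster 10 is highest for Ctsb, Ctsc, Ctss, Ctsz, Ctsd and Ctsa, cluster 18 for Ctsh and Ctsl, cluster 3 for Ctsw and cluster 2 for Ctse.

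The exopeptidase Ctsc, dipeptidyl peptidase I, activates serine proteases of granules by removing a dipeptide from their N-terminus. In the Macrophages clusters its level was lowest in cluster 6 with 90.6 CPM, had a median of 240 CPM and was highest in cluster 10 with 619 CPM. Cluster 0 had 563 CPM. The other clusters had 34.5 CPM at the lowest in cluster 9, a median of 121 CPM and 281 CPM at the highest in cluster 2. Most of the ranges overlapped: only 2 Macrophages clusters, 10 and 0, lay above all others. The order between them was small in size, a 1.10-fold (1.06 to 1.14) difference. The NK cell-like cluster 3 and the neutrophil-like cluster 7, whose granule proteases are known substrates of this enzyme, had 166 and 240 CPM.

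Ctsh, cathepsin H, is mainly an aminopeptidase. Dendritic cell-like clusters led it, with 1113 CPM (1026 to 1205) in the plasmacytoid-like cluster 18 and 854 CPM (829 to 878) in the mature dendritic cell-like cluster 8. Over the Macrophages clusters the lowest, median and highest values were 117, 369 and 1113 CPM, against 10.1, 41.9 and 505 CPM in the other clusters. The type 1 dendritic cell-like cluster 17 had 316 CPM, less than clusters 10 and 0 with 632 and 519 CPM. As with Ctss, the 4 B cell clusters were the high ones among the others, at 313, 505, 234 and 235 CPM in clusters 1, 2, 4 and 12, while the NK and T cell clusters had 10.1 to 65.9 CPM. The span between the highest and lowest of the 20 clusters was 110-fold for Ctsh, against 14.1-fold for Ctsa.

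Ctsz encodes cathepsin Z (also called cathepsin X), a carboxypeptidase. Levels in the Macrophages clusters were 153 CPM at the lowest in cluster 6, 669 CPM at the median and 1267 CPM at the highest in cluster 10. In the other clusters they were 71.6 CPM at the lowest in cluster 13, 207 CPM at the median and 506 CPM at the highest in cluster 2. The groups overlapped, with 6 of 9 Macrophages clusters above all others. Behind cluster 10, clusters 15, 18 and 8 had 838, 833 and 814 CPM, and neither neighbouring pair among them could be told apart by counting error.

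Ctsw, cathepsin W, is a cysteine protease known from NK cells and cytotoxic T cells. It was concentrated in 1 cluster: of its 2168 UMIs, 1666 lay in the NK cell-like cluster 3, at 454 CPM (432 to 476) and 2.65 UMIs per cell. Its mean over the 19 other clusters was 8.20 CPM, which makes a 55.3-fold ratio. Next came the innate lymphoid-like cluster 16 with 37.6 CPM from 8 UMIs, and the Macrophages clusters had 4.30 to 12.1 CPM. Gzma and Gzmb, granzymes that cathepsin C activates, were highest in the same cluster 3 at 13011 and 1828 CPM.

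Ctsd, cathepsin D, is the aspartic endopeptidase of the lysosome. Its pattern divided the lymphoid clusters. Macrophages clusters had 105 CPM at the lowest in cluster 17, a median of 446 CPM and 1325 CPM (1297 to 1354) at the highest in cluster 10, where clusters 19 and 7 followed at 724 and 716 CPM. The other clusters had 31.8 CPM at the lowest in cluster 4, a median of 191 CPM and 615 CPM at the highest in the NK cell-like cluster 3. The groups overlapped widely, and only 3 Macrophages clusters lay above all others. All 3 clusters led by dendritic cell genes were low, at 133, 105 and 146 CPM in clusters 8, 17 and 18, and so were the B cell clusters at 43.0, 79.9, 31.8 and 131 CPM in clusters 1, 2, 4 and 12. The NK and T cell clusters had 165 to 615 CPM, each of them above all 4 B cell clusters.

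Free RNA of myeloid cells can enter any droplet, so the lymphoid levels are set beside Lyz2, the lysozyme gene of macrophages and neutrophils. It had 671 to 29101 CPM in the Macrophages clusters, against 36.0 to 395 CPM in the 11 others. In the NK cell-like cluster 3 there were 404 Ctsd UMIs per 100 Lyz2 UMIs, against 9.38 in cluster 0 and 8.49 in cluster 10. Cluster 1, B cell-like, had 683 Ctss UMIs per 100 Lyz2 UMIs, against 27.1 in cluster 0 and 15.5 in cluster 10. For Ctsl the values were 89.4 in cluster 5, 63.5 in cluster 9 and 185 in cluster 14, against 3.93 in cluster 0 and 1.99 in cluster 10, and 247 in cluster 18. Over 8 cathepsins (all but Ctse and Ctsw) and the 11 clusters not named Macrophages, the ratio to Lyz2 was above that of clusters 0 and 10 in 85 of 88 cases. The other 3 were Ctss in clusters 5 and 9, with 23.1 and 20.6 UMIs per 100 Lyz2 UMIs, and Ctsh in cluster 9, with 8.20 against 9.04 in cluster 0. Close to cluster 0 were also Ctsh in cluster 5, with 9.62, and Ctsc in cluster 9, with 10.1 against 9.82. The count depends on the reference, since clusters 0 and 10 are rich in Lyz2. Cluster 8 had 184 Ctss UMIs per 100 Lyz2 UMIs. The NK and T cell clusters lay below that, at 20.6 to 82.6, and the B cell clusters above it, at 189 to 1198. The neutrophil gene S100a8 was likewise above clusters 0 and 10 in all 11 clusters. It had 21.1 to 100 UMIs per 100 Lyz2 UMIs there, against 2.91 in cluster 0 and 7.52 in cluster 10. A ratio above these 2 clusters therefore cannot tell free RNA from RNA of the cells themselves. The part of free RNA in the cathepsin levels was not tested. The macrophage marker list (9 genes) summed to 309 to 7192 CPM in the Macrophages clusters, against 32.4 to 224 CPM in the others.

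Ctse, cathepsin E, is an aspartic protease of endosomes rather than lysosomes. It had 438 UMIs in all clusters together. The Macrophages clusters had 2.51, 4.39 and 6.86 CPM at the lowest, median and highest, and the other clusters 3.21, 9.52 and 28.8 CPM. The highest, cluster 2, rested on 44 UMIs in 665 cells, and the next, cluster 16, on 4 UMIs. None of its 19 neighbouring pairs could be told apart by counting error, and both of these clusters are of the few-UMI, high-mitochondrial kind. Beyond neighbours, the interval of cluster 2, 20.9 to 38.7 CPM, overlapped those of clusters 16 and 5. It lay above those of clusters 12 and 4, 8.21 to 16.4 and 8.71 to 13.8 CPM. The intervals of the Macrophages clusters ended at 16.2 CPM or lower. By their levels, 7 of the 11 other clusters lay above every Macrophages cluster.

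Ctsa, cathepsin A, is the serine carboxypeptidase that also protects the lysosomal enzymes Neu1 and Glb1 in a complex. The Macrophages clusters had 56.2 CPM at the lowest in cluster 6, a median of 195 CPM and 365 CPM (350 to 381) at the highest in cluster 10. In the other clusters the lowest was 25.9 CPM in cluster 4, the median 71.4 CPM and the highest 118 CPM in cluster 16, so that 7 of 9 Macrophages clusters lay above all others. Clusters 15 and 0 came next at 294 and 237 CPM, each apart from its neighbour. Its partners did not have that contrast: Neu1 averaged 48.3 CPM in the Macrophages clusters and 45.7 CPM in the others, Glb1 21.5 and 34.7 CPM, and Galns, another enzyme of the complex, 9.87 and 8.46 CPM.

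Set against each other as means over clusters, 7 of the 10 cathepsins were more than 2-fold higher in the 9 Macrophages clusters than in the 11 others, where 11.7% of the 14202 genes were. These were Ctsa, Ctsb, Ctsc, Ctsh, Ctsl, Ctss and Ctsz. Ctse and Ctsw were more than 2-fold lower, against 13.4% of all genes, and Ctsd lay within 2-fold. The median log2 ratio (0.5 CPM added to each mean) was 1.44 over the 10 cathepsins and -0.18 over all 14202 genes. The SDs that follow are spreads between clusters, which are not replicates of a condition.

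Ctsb averaged 1018 ± 753 CPM in the Macrophages clusters and 127 ± 57.6 CPM in the others (SD, n = 9 and 11 clusters), an 8.02-fold ratio. Ctss averaged 1234 ± 648 CPM in the Macrophages clusters and 275 ± 291 CPM in the others, a 4.48-fold ratio. The exopeptidases Ctsh, Ctsz and Ctsc had ratios of 3.61, 3.32 and 2.42, and Ctsa one of 2.56. These 6 genes stayed past 2-fold in all 29 alternative calculations. The filters of at least 200 UMIs and at least 1 UMI could not change these ratios. As UMIs per cell, 62.6% of all genes were more than 2-fold higher.

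Of the remaining ratios, those of Ctsl and Ctsw turned on single clusters, while those of Ctse and Ctsd lay near the 2-fold line. Ctsl averaged 311 ± 511 CPM in the Macrophages clusters and 108 ± 135 CPM in the others, a 2.88-fold ratio that became 1.33-fold without cluster 18. Ctsw averaged 8.02 ± 2.94 CPM in the Macrophages clusters and 48.8 ± 135 CPM in the others, a log2 ratio of -2.53 that became -0.06 without cluster 3. Ctse averaged 4.74 ± 1.497 CPM in the Macrophages clusters and 10.8 ± 7.42 CPM in the others, a log2 ratio of -1.10 that was -0.66 without the 4 clusters of few UMIs per cell. Ctsd averaged 473 ± 408 CPM in the Macrophages clusters and 247 ± 187 CPM in the others, a 1.91-fold ratio that passed 2-fold in 12 of the 29 alternative calculations, among them 2.25-fold without cluster 3.

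**Figure D2:**
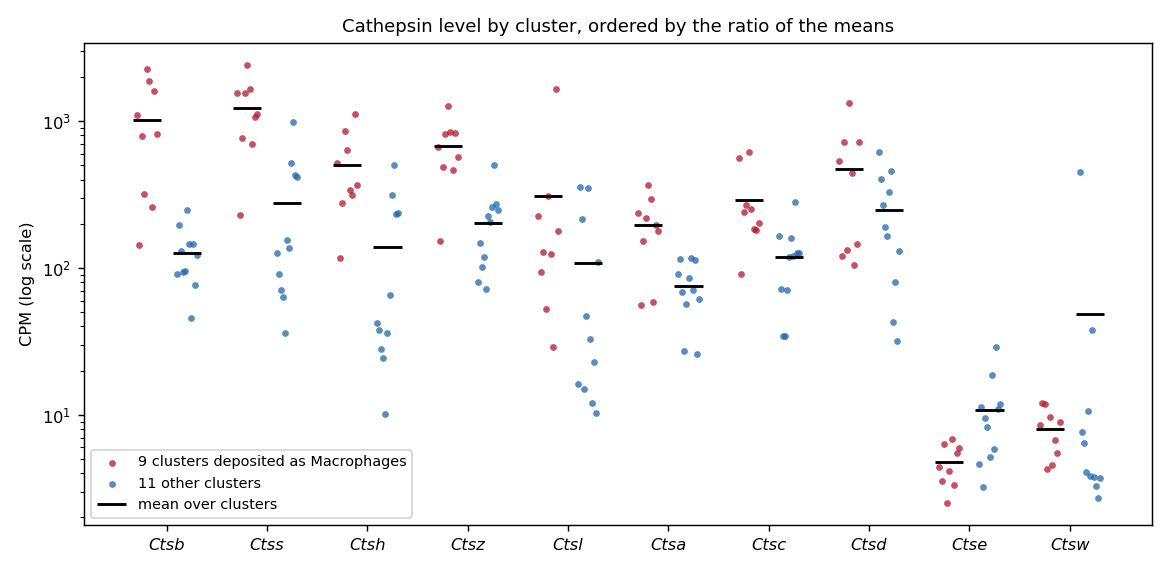
CPM (log scale) of each cathepsin in the 9 clusters named Macrophages (red, left) and the 11 other clusters (blue, right), 1 point per cluster, with bars at the mean over clusters and genes ordered by the ratio of the means. For Ctsb 8 of 9 red points lie above all blue ones, while the Ctsw mean of the other clusters rests on cluster 3 at 454 CPM.

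Summed over the 10 genes, cathepsins had 1022 CPM at the lowest, 4230 CPM at the median and 9222 CPM at the highest in the Macrophages clusters, against 571, 1391 and 2673 CPM in the other clusters. The ratio of the means was 3.48. Cluster 6, led by cell cycle genes, and the type 1 dendritic cell-like cluster 17 lay within the range of the others, at 1022 and 2127 CPM. Per cell the sums were 22.5 to 160 UMIs in the Macrophages clusters and 1.83 to 17.4 UMIs in the others, which do not overlap. UMIs per cell over all genes moved with this, and were 9200 to 24869 in the Macrophages clusters and 1278 to 11884 in the others. Counted per cell, the median log2 ratio of all genes moved to 1.21, and relative to it Ctse was at -0.88 and Ctsd at 1.54.

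**Figure D3:**
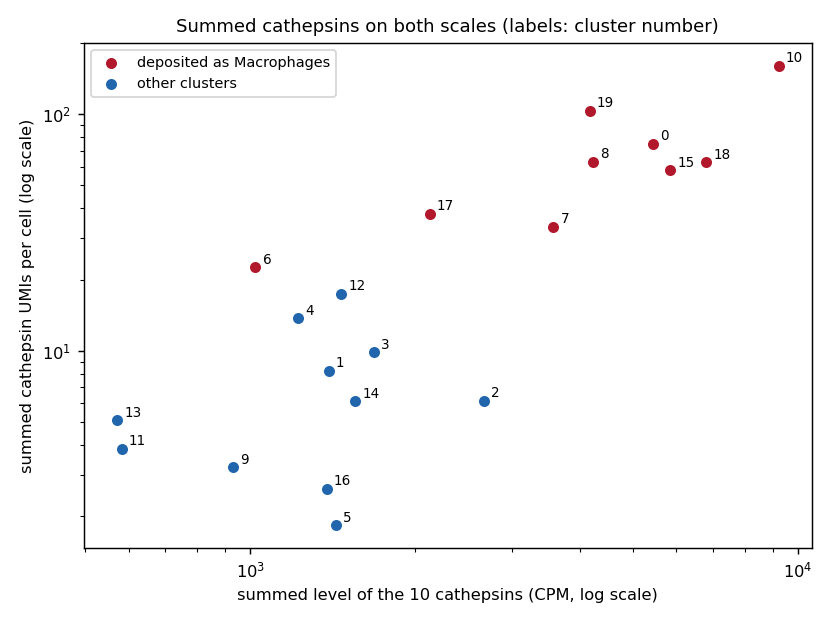
Summed level of the 10 cathepsins in each cluster as CPM (horizontal, log scale) and as UMIs per cell (vertical, log scale), with each point labelled by its cluster number. Cluster 10 is highest on both axes, at 9222 CPM and 160 UMIs per cell, and clusters 6 and 17 lie within the range of the other clusters in CPM but above them in UMIs per cell.

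Each of the 9 Macrophages clusters was set against the mean of the 19 remaining clusters. That mean always held cluster 3 with 454 CPM of Ctsw, so Ctsw was more than 2-fold lower in each of the 9. Cluster 10 had 7 of 10 more than 2-fold higher (Ctsa, Ctsb, Ctsc, Ctsd, Ctsh, Ctss and Ctsz), against 6.2% of all genes. In that cluster Ctsb was 5.19-fold and Ctsd 4.46-fold above the mean of the rest. The nonclassical monocyte-like cluster 15 had 4 higher (Ctsa, Ctsb, Ctss and Ctsz), where 6.08% of all genes were. The plasmacytoid-like cluster 18 also had 4 (Ctsb, Ctsh, Ctsl and Ctsz), where 8.6% were, with Ctsl at 13.5-fold.

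Cluster 0 had 3 of the 10 higher (Ctsb, Ctsc and Ctss), against 6.52% of all genes, and the mature dendritic cell-like cluster 8 had 3 (Ctsh, Ctss and Ctsz), against 5.03%. Cluster 8 had 4 of the 10 more than 2-fold lower, Ctsd, Ctse, Ctsl and Ctsw, against 18.2% of all genes. In the neutrophil-like cluster 7 only Ctsd was higher, against 6.08% of all genes, and likewise in the serous cavity macrophage-like cluster 19, against 7.84%. The type 1 dendritic cell-like cluster 17 had none higher, where 5.15% of all genes were, and 6 lower (Ctsa, Ctsb, Ctsd, Ctse, Ctsl and Ctsw), where 30.1% of all genes were. Cluster 6, led by cell cycle genes, had none higher, where 7.18% of all genes were, and all 10 lower, where 20.6% were. The ratios lay between 0.260 for Ctsb and 0.462 for Ctsl. Its Ctsw, at 12.1 CPM, was nonetheless the highest of the 9 Macrophages clusters. Cluster 6 also had the highest T cell marker sum and the lowest macrophage marker sum of these 9, so its levels cannot be assigned to macrophages. The dendritic cell-like clusters thus differed in their cathepsins among themselves: cluster 17 had 704 CPM of Ctss and 29.1 CPM of Ctsl, cluster 8 had 1564 and 52.4 CPM, and cluster 18 had 1074 and 1654 CPM.

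The makeup of the cathepsin transcripts, as each gene's share of a cluster's cathepsin UMIs, was led by 4 genes. Ctss led in 10 clusters, 6 of them Macrophages clusters and the other 4 the B cell clusters, with 37.2% in cluster 1 and 37.0% in cluster 8. Ctsd led in 6 clusters, all of them NK or T cell clusters, with 36.5% (Clopper-Pearson 95% interval 35.3% to 37.7%) in cluster 3. There Ctsw was the next with 26.9%. Ctsb led in clusters 7 and 15 with 22.1% and 32.0%, and Ctsl in clusters 14 and 18 with 22.4% and 24.3%. In cluster 10 the order was Ctss 26.3%, Ctsb 24.5%, Ctsd 14.4% and Ctsz 13.7%. In cluster 18 it was Ctsl 24.3%, Ctsb 23.5%, Ctsh 16.3% and Ctss 15.8%, and the intervals of Ctsl (22.9% to 25.7%) and Ctsb (22.2% to 24.9%) overlapped. The leading gene was also not apart from the next in cluster 7 (Ctsb 21.4% to 22.8%, Ctss 20.8% to 22.2%), cluster 14 (Ctsl 20.1% to 24.9%, Ctsd 18.9% to 23.6%) and cluster 5 (Ctsd 25.4% to 30.7%, Ctsl 22.1% to 27.2%).

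**Figure D4:**
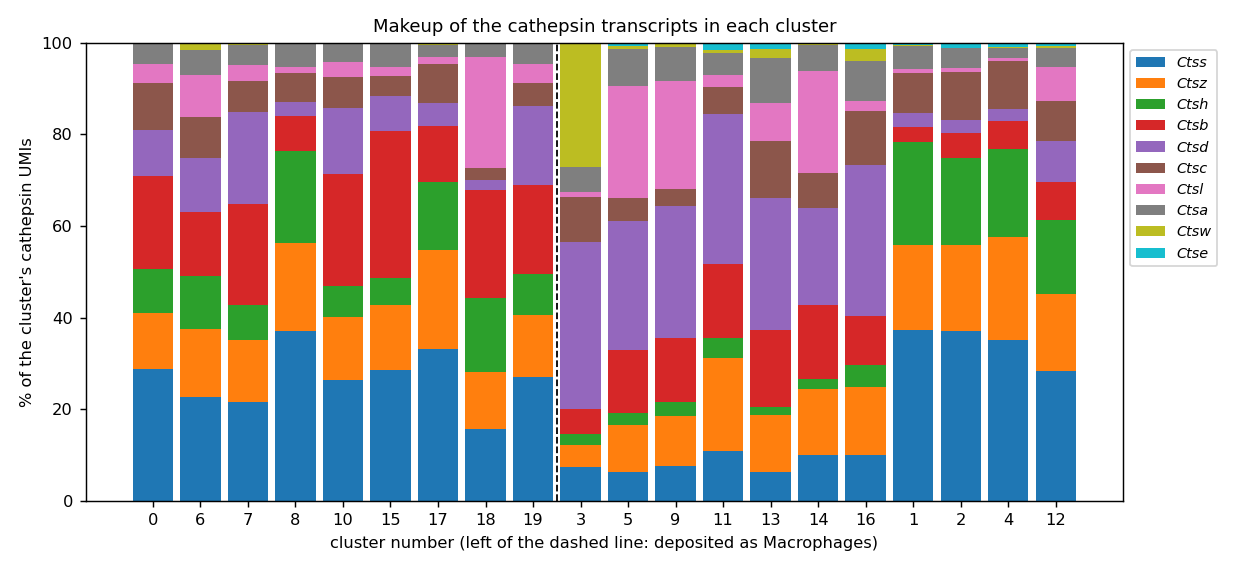
Share of each cathepsin in the cathepsin UMIs of each cluster (stacked bars, % of UMIs), with the clusters named Macrophages left of the dashed line. Ctss leads in the B cell clusters and 6 Macrophages clusters, Ctsd in 6 of the 7 NK and T cell clusters, and Ctsl takes 24.3% in cluster 18.

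Other cathepsins were sparse. Of 13 further cathepsin genes, 9 were at 0 UMIs in every cluster and 4 reached 20 UMIs. Of these 4, 2 were more than 2-fold higher in the Macrophages clusters, against 11.7% of all genes. Ctsk, a collagen- and elastin-cleaving enzyme known from osteoclasts and plaques, had 155 UMIs and averaged 2.85 CPM in the Macrophages clusters and 0.411 CPM in the others, with 13.8 CPM in cluster 10. Ctsf averaged 3.10 CPM in the Macrophages clusters and 0.457 CPM in the others. Ctsg, a serine protease of neutrophil granules, had 39.8 CPM in cluster 14, its highest. Ctso was the other way round, with 42.2 CPM in the Macrophages clusters and 72.1 CPM in the others, within 2-fold.

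Genes that inhibit cathepsins were listed with 16 names, 14 of them in the table, and 9 reached 20 UMIs. Of these, 6 were more than 2-fold higher in the Macrophages clusters and 3 lower, with a median log2 ratio of 2.16, that of Stfa1. Stfa1 and BC100530, with 56 and 29 UMIs, had 0 CPM in the other clusters and passed the minimum only through the Macrophages clusters. Together with Stfa2l1 and Gm5483, which are also among the 6, they were highest in cluster 7. The count and the median therefore do not describe the inhibitors as a class. The shares of all genes were 11.7% and 13.4%. Cst3, cystatin C, a secreted inhibitor, averaged 5978 CPM in the Macrophages clusters and 415 CPM in the others, and reached 28898 CPM in the type 1 dendritic cell-like cluster 17. Cstb, a cytosolic inhibitor, averaged 351 CPM in the Macrophages clusters and 76.9 CPM in the others, and was highest in cluster 10 at 1236 CPM. Cst7, cystatin F, which acts inside the endosomes and granules of immune cells, was highest in the NK cell-like cluster 3 at 187 CPM, where Ctsw was also highest. Stefin genes were highest in the neutrophil-like cluster 7, with Stfa2l1 at 101 CPM and Gm5483 at 201 CPM. These near-identical copies may share reads, so their split is uncertain.

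Of 9 genes that sort or process cathepsins, 5 were more than 2-fold higher in the Macrophages clusters and 0 lower, with a median log2 ratio of 1.06. Here too 11.7% of all genes were higher and 13.4% lower. Lgmn, the asparaginyl endopeptidase that cleaves cathepsins into their chains, averaged 253 CPM in the Macrophages clusters and 36.0 CPM in the others, and was highest in cluster 10 at 766 CPM. Psap, the precursor of the saposins and a partner of cathepsin D, averaged 1775 CPM in the Macrophages clusters and 396 CPM in the others, again highest in cluster 10 at 3255 CPM. Grn, progranulin, averaged 358 CPM in the Macrophages clusters and 38.0 CPM in the others, and was highest in cluster 18 at 1002 CPM. Of 20 other lysosome genes, 11 were more than 2-fold higher and 0 lower, with a median of 1.14. Cd68 averaged 210 CPM in the Macrophages clusters and 12.6 CPM in the others, and Lamp1, a protein of the lysosome membrane, 392 and 157 CPM. Cd63, another membrane protein, averaged 171 CPM in the Macrophages clusters and 13.5 CPM in the others, and Npc2, which binds cholesterol inside the lysosome, 633 and 255 CPM. Of the 4 transcription factors of lysosome genes, Mitf and Tfec were more than 2-fold higher, with means of 9.30 and 3.02 CPM in the Macrophages clusters and 3.16 and 0.434 CPM in the others. Tfeb, whose motif is shown above, averaged 25.1 CPM in the Macrophages clusters and 14.96 CPM in the others, and Tfe3 29.6 and 20.9 CPM, both within 2-fold.

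The class II pathway, which cathepsins S and L serve, had 5 of 10 genes more than 2-fold higher in the Macrophages clusters and 1 lower, with a median log2 ratio of 0.86. Over all genes of at least 20 UMIs, 11.7% were higher and 13.4% lower. Cd74, the invariant chain, averaged 9835 CPM in the Macrophages clusters and 6001 CPM in the others. It was highest in cluster 2 at 23427 CPM, with 21962 CPM in cluster 17, 21670 CPM in cluster 8 and 15267 CPM in cluster 1. The class II gene H2-Eb1 averaged 3105 CPM in the Macrophages clusters and 1392 CPM in the others, and H2-DMb1, which helps to load peptides, 362 and 61.9 CPM. H2-Ab1, a class II chain, was highest in cluster 17 at 8824 CPM, and Ciita, the coactivator of class II genes, in cluster 2 at 260.0 CPM. Cluster 10, with the most Ctss, had 6093 CPM of Cd74 and 63.4 CPM of Ciita. Of 8 granule serine proteases that cathepsin C activates, 4 were more than 2-fold higher and 2 lower, the lower ones being Gzma (192 CPM in the Macrophages clusters and 1450 CPM in the others) and Gzmb (18.1 and 178 CPM). Prtn3 and Mcpt8, proteases of neutrophils and basophils, averaged 39.3 and 5.43 CPM in the Macrophages clusters and 1.29 and 0.0213 CPM in the others. Prtn3 was highest in the serous cavity macrophage-like cluster 19 of 27 cells, at 244 CPM, and Mcpt8 in cluster 0 at 45.6 CPM.

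Likeness of pattern was measured as Pearson's r of log2(CPM + 1) over the 20 clusters, among 10685 genes with at least 200 UMIs. The clusters share libraries and differ in depth, so r is a description. Ctsh, Ctss and Ctsz were most like each other: Ctss was the nearest gene of Ctsh (r = 0.961) and of Ctsz (r = 0.957), followed by Ly86 (0.945) and Scpep1 (0.938) for Ctsh, and by Pirb (0.937), an inhibitory receptor of myeloid and B cells, and Lacc1 (0.915) for Ctsz. Ctss was nearest to Ctsh, Ctsz and Lacc1 (0.9505). Ctsc was like Lgmn (0.913) and Daglb (0.882), and Ctsa was nearest to Tcirg1 (0.901), a subunit of the lysosomal proton pump, Rgl1 (0.885) and Lamp2 (0.884). Ctsb was like Gm36161 (0.918) and Cd68 (0.907).

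Of the other 4, Ctsl and Ctsd were partly like Ctsb (r = 0.705 and 0.611) and Ctsa (0.582 and 0.633). With Ctsc, Ctsh, Ctss and Ctsz, r was 0.185 to 0.360 for Ctsl and -0.0869 to 0.329 for Ctsd. Ctse and Ctsw were apart, with r of at most 0.0958 with any of Ctsa, Ctsb, Ctsc, Ctsh, Ctss and Ctsz. Ctsl was nearest to Usf2 (0.895), a transcription factor of the E-box, Cdk20 (0.856) and Ccr9 (0.854). Usf2 itself varied little, between 60.0 and 125 CPM. Ctsd was nearest to Tbc1d2b (0.889), Smox (0.865) and Selenop (0.834), and had r = 0.0923 with Ctss. Ctsw was nearest to Styk1 (0.922), the NK receptor gene Klrb1a (0.921) and Eomes (0.895), a transcription factor of NK cells, with Spearman's rho of only 0.599, 0.672 and 0.646. For Ctse the nearest were Gm42722 (0.846), AU041133 (0.817) and Arhgap15 (0.810). By Spearman's rank correlation, 12 of the 30 nearest genes were again among the 3 nearest.

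The libraries can be set side by side only by their cells. Cluster 10, highest for 6 cathepsins, held 149 nt-LNA cells, 3.06% of that library (Clopper-Pearson 95% interval 2.59% to 3.58%), and 209 saline cells, 7.62% (6.66% to 8.68%). Cluster 18, highest for Ctsh and Ctsl, held 0.801% (0.570% to 1.09%) of the nt-LNA cells and 0.729% (0.446% to 1.12%) of the saline cells, which overlap. Cluster 3, which holds most Ctsw UMIs, had 7.43% (6.71% to 8.20%) of the nt-LNA cells and 9.70% (8.62% to 10.9%) of the saline cells. Cluster 2, highest for Ctse, had 10.4% (9.60% to 11.3%) and 5.69% (4.85% to 6.62%). With 1 library per treatment these shares have no replicate check, and library and treatment cannot be told apart. They give cells and not the level of any cathepsin.

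**Figure D5:**
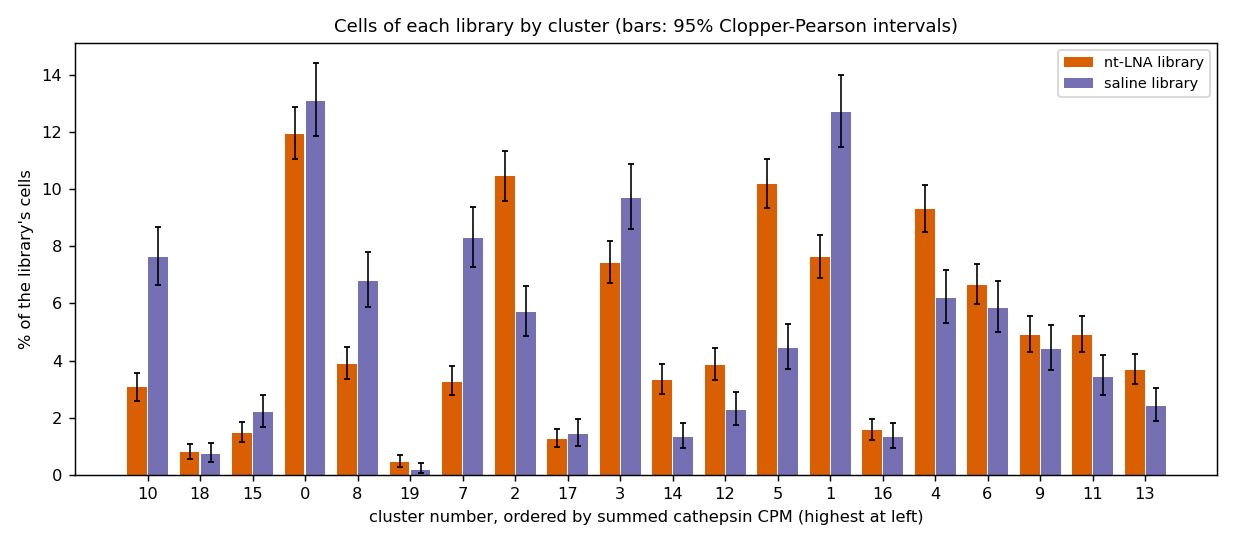
Percent of the cells of the nt-LNA library (orange, left) and of the saline library (purple, right) in each cluster, ordered by summed cathepsin CPM from highest to lowest, with 95% Clopper-Pearson intervals that cover counting error only. Cluster 10 holds 3.06% of nt-LNA cells and 7.62% of saline cells, and cluster 18 0.801% and 0.729%.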

How the data were processed

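The deposited counts are whole-number UMIs per gene, which the authors summed within 20 clusters, so that nt-LNA and saline cells of a cluster are in 1 column. The submitters' processing notes list Cell Ranger 2.1.1, Seurat and the build mm9. Cell filters, clustering settings and doublet treatment are not stated in these sources. A deposited cell table gives each cell's library, cluster and cell type name. Deposited values scaled by upper quartile were not used.

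CPM was each count over its cluster's total. Ratios compare mean CPM over clusters, weighted equally, with a pseudocount of 0.5 CPM and genes of at least 20 UMIs. Intervals are exact at 95% (Poisson, Clopper-Pearson, conditional for ratios of counts) and cover counting error only. No test was run and no p-value computed. A cluster was called X-like with at least 3 markers of 1 type among its 50 leading genes (at least 50 UMIs) and no other list tied. Clusters 2, 5, 14 and 16 also needed 1 among their leading 10, and smooth muscle was not allowed as a name. This rule was made after the data were seen. No doublet caller was run, which needs counts per cell.

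The cathepsins, gene lists and markers were chosen with earlier results of these data known. Genes were named from the 10 cathepsins, for each list the 2 with most UMIs and the 2 with the largest absolute log2 ratio, the 3 nearest patterns of each cathepsin (1 of the 3 for Ctsb and for Ctsc is not reported here), and Cst3, Cst7, Cstb, Lgmn, Cd74, H2-Ab1, Ciita, Gzma, Gzmb, Psap, Tfeb, Neu1, Lyz2, C1qa, S100a8, Ptprc and Cd3e. Alternatives were TMM and upper-quartile factors, totals without ribosomal and mitochondrial genes, UMIs per cell, summed counts, other filters and pseudocounts, and clusters left out. Calculations used Python 3.11.15, numpy 2.4.6, pandas 2.3.3, scipy 1.17.1, matplotlib 3.10.9, R 4.3.3 and edgeR 4.0.16 (TMM factors only), and were tested on simulated counts.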

Additional observations from a re-analysis of the deposited data

How the results depend on the processing

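The count of cathepsins more than 2-fold higher in the Macrophages clusters was 7 or 8 in all 29 alternatives, the eighth being Ctsd. The filters of at least 200 UMIs and at least 1 UMI change only the share over all genes, so they could not change this count. The summed ratio of Macrophages over other clusters, 3.48 as reported, was 3.60 with TMM factors, 3.42 with upper-quartile factors, 3.30 without ribosomal and mitochondrial genes in the totals, 3.38 with counts summed over clusters, 9.66 as UMIs per cell, 4.21 without clusters 2, 5, 14 and 16, and 3.82 without cluster 6. Leaving out each cluster in turn, which was chosen after seeing the data, gave 3.07 (without cluster 10) to 3.86 (without cluster 2). The count more than 2-fold lower was 1 in place of 2 as UMIs per cell and without clusters 2, 5, 14 and 16, and ran between 1 and 2 when single clusters were left out (1 without cluster 2, 3 or 16). Ctse reversed to a log2 ratio of 0.33 as UMIs per cell, where the median of all genes was 1.21. The share of all genes more than 2-fold higher and lower was 62.6% and 1.21% as UMIs per cell and 14.03% and 5.50% with summed counts, against 11.7% and 13.4% as reported. As UMIs per cell, the highest cluster was 19 for Ctse and 8 for Ctsh, and unchanged for the other 8 genes. By Spearman's correlation 12 of 30 nearest patterns were again found. The causes of these shifts were not tested. No paired analysis was possible because each treatment has 1 library and the counts pool them. Ctse (438 UMIs) and clusters 16, 18 and 19 are limited by depth.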
